A study of Mus musculus with 20 samples.

Results

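The response of the wild-type mouse trachea to chemical injury was described here from 10 whole tracheas, 5 taken 3 days after injury and 5 left uninjured, out of the 20 samples of the study. The members were chosen by their labels alone, as all wild-type samples of either treatment. The other 10 samples came from mice lacking Myd88, an adaptor protein of Toll-like and interleukin 1 receptors. They enter the estimate of the spread between replicates and the choice of which probes were tested. All wild-type mice were C57/Bl6, given as 4 months old in the sample labels and as 4 to 6 months old and of either sex in the study's methods, which also state that they came from at least 3 litters. Injured mice received 2% polidocanol, a detergent, into the airway (intratracheal in the labels, oropharyngeal in the methods), whereas uninjured mice are labelled only as controls and no sham instillation is described. Whole trachea, with connective tissue trimmed away, was used for RNA, so that epithelium, submucosal glands, cartilage, smooth muscle, vessels and leukocytes were measured together. Some genes of neighbouring skeletal muscle, fat and thyroid were bright as well, with values given below. In such bulk samples, fewer cells of a type and less RNA per cell cannot be told apart.

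The mouse trachea is lined by a pseudostratified epithelium in which basal cells, the keratin 5 and keratin 14 positive progenitors, lie beneath secretory (club) cells and ciliated cells. Secretory cells release secretoglobins and defence proteins and carry much of the airway's capacity to oxidise and conjugate foreign chemicals, while ciliated cells move mucus with motile cilia built around a microtubule axoneme. Detergent strips the luminal cells, after which surviving cells divide, leukocytes enter the tissue and new luminal cells differentiate.

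Each RNA was labelled with a single dye and hybridised to 1 whole-genome oligonucleotide array of 41174 probes. Signals are given as log2 intensity relative to the 75th percentile of the same array, so that 0 stands for the 75th percentile and a difference of 1 for a 2-fold change. The 26075 probes with signal well above background on 10 or more of all 20 arrays were tested, standing for 17740 genes or unnamed transcripts, and a probe was called when its adjusted p was under 0.01. Between 61.3% and 66.3% of spots on the 10 arrays were well above background. Correlations over all tested probes were 0.951 to 0.985 between uninjured arrays, 0.943 to 0.989 between injured arrays and 0.919 to 0.953 between the groups. Each of 5 slides held 1 array of every group, all of the same replicate number, and slides 1 and 5 were scanned on a later day than slides 2, 3 and 4. Markers of the labelled tissue were in place, with Krt5, Scgb1a1, Foxj1, Col2a1 and Myh11 well above background on all 10 arrays, and Xist was high in replicates 1, 4 and 5 and low in replicates 2 and 3 of both groups, so that both groups held the same number of samples with either level. Uninjured replicate 3 stood apart from the other uninjured arrays in squamous and mitotic genes, and uninjured replicate 1 in neutrophil genes. Both are described with those genes.

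Injury raised 844 probes and lowered 528, which is 3.24% and 2.02% of those tested and 5.26% together. The median size of a called rise was 1.48 and that of a called fall was 1.74 on the log2 scale. Of the called probes, 265 rises and 227 falls exceeded 4-fold, and 23 rises and 45 falls exceeded 16-fold. The direction of the mean was seen within each of the 5 slides for 832 of the 844 rises and 522 of the 528 falls. These probes were called on the same arrays, and for 822 rises and 500 falls the groups did not overlap. Without overlap the sign within a slide is fixed, so these counts are no separate evidence. The counts depended on single arrays. The 844 rises became 561, 364, 375 and 559 without uninjured replicate 1, 2, 4 or 5 and 379, 477 and 525 without injured replicate 1, 2 or 5, and the 528 falls became 303, 301 and 291 without uninjured replicate 1, 2 or 4 and 291 without injured replicate 1.

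The balance of rises and falls differed with signal. With the tested probes ranked by mean signal over the 10 arrays and parted into 5 bins of 5215, 79 of the dimmest bin rose and 146 fell, whereas in the brightest bin 196 rose and 60 fell. The middle bin held the most rises, 206, with 92 falls. The fitted standard error was larger for dim probes, with a median of 0.29 in the dimmest and 0.19 in the brightest bin, and brightness of a probe depends on its sequence as well as on the amount of RNA. Among the 100 genes with the brightest signal in uninjured trachea, 6 were called and all 6 fell, namely Scgb3a2, Bpifa1, Gstm1, Cyp2a5, Aldh1a1 and Scgb1a1, which encode secreted proteins and metabolic enzymes of secretory cells. Over all tested genes, 3.68% were called higher and 2.32% lower. Among the 100 brightest of injured trachea only S100a4, a calcium-binding protein of motile cells, was called, with a rise of 1.24. The 2 sets shared 76 genes. Each set was ranked by the signal of 1 group, which enters the difference, so that the first favours falls and the second rises. At the edge of detection, 47 probes were well above background on all 5 injured arrays and on no uninjured array, and 59 showed the reverse. Of these, 15 and 54 passed the filter and were tested. The filter thus kept more lost than gained probes, and its part in the excess of falls among dim probes was not tested.

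**Figure D1:**
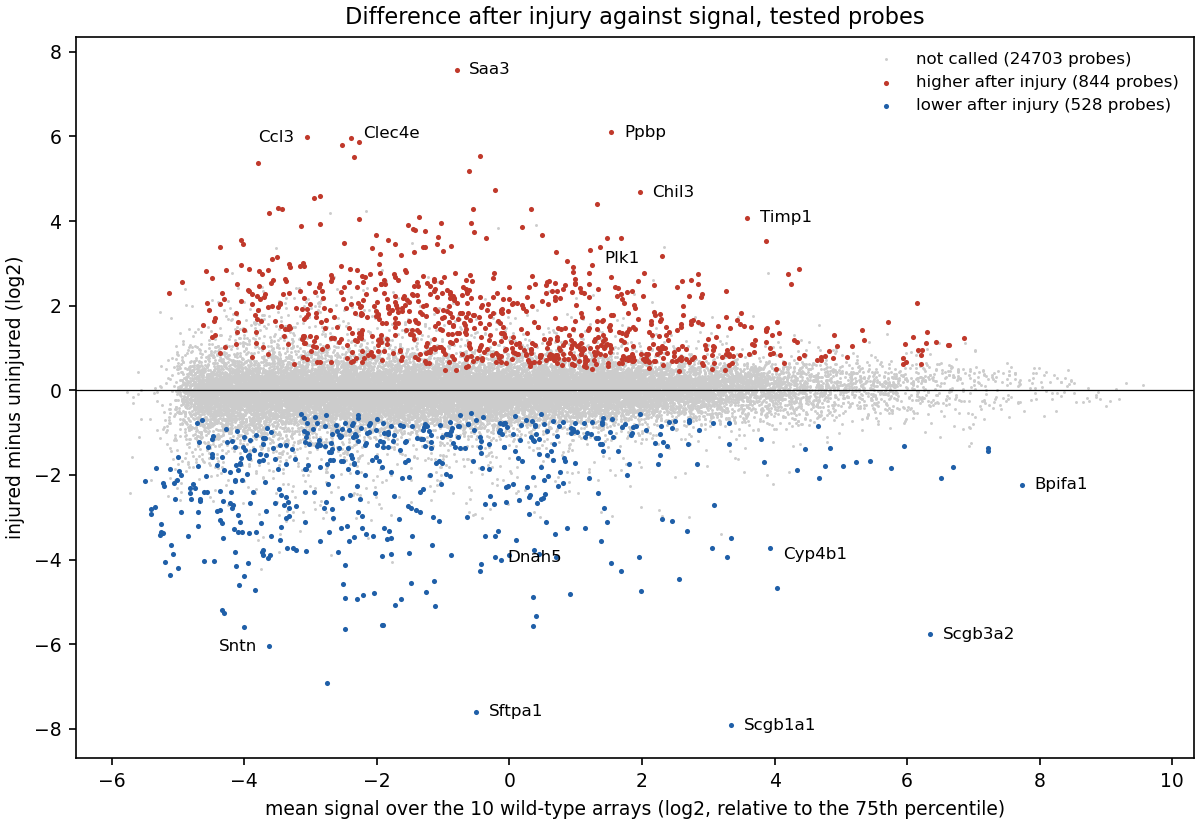
Difference between injured and uninjured wild-type tracheas (log2, vertical axis) against mean signal over the 10 arrays (log2 relative to the 75th percentile, horizontal axis) for 26075 tested probes, with 844 called rises in red, 528 called falls in blue and the rest in grey. Scgb1a1 and Scgb3a2 lie at high signal and far below 0, while Saa3, with a rise of 7.58, is the highest point.

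To describe the response by cell type and function, 47 gene lists were counted, with each gene represented by its brightest tested probe. Other probes of a gene were not always called with it. Of the 2 tested probes of each of Dnah9, Ak7, Cd55, Itgax and Thy1, only 1 was called. In the reverse case, as for Nrg1, Top2a, Mad2l1 and Anln, another probe was called higher while the brightest was not. Over all tested genes 3.68% were called higher and 2.32% lower, and the median difference was 0.00, so these are the values against which the lists are read. The lists held 894 genes, of which 823 were tested, 51 were on the array but did not pass the filter, and 20 were not found on the array under their current names. In 18 of the lists no gene was called.

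**Figure D2:**
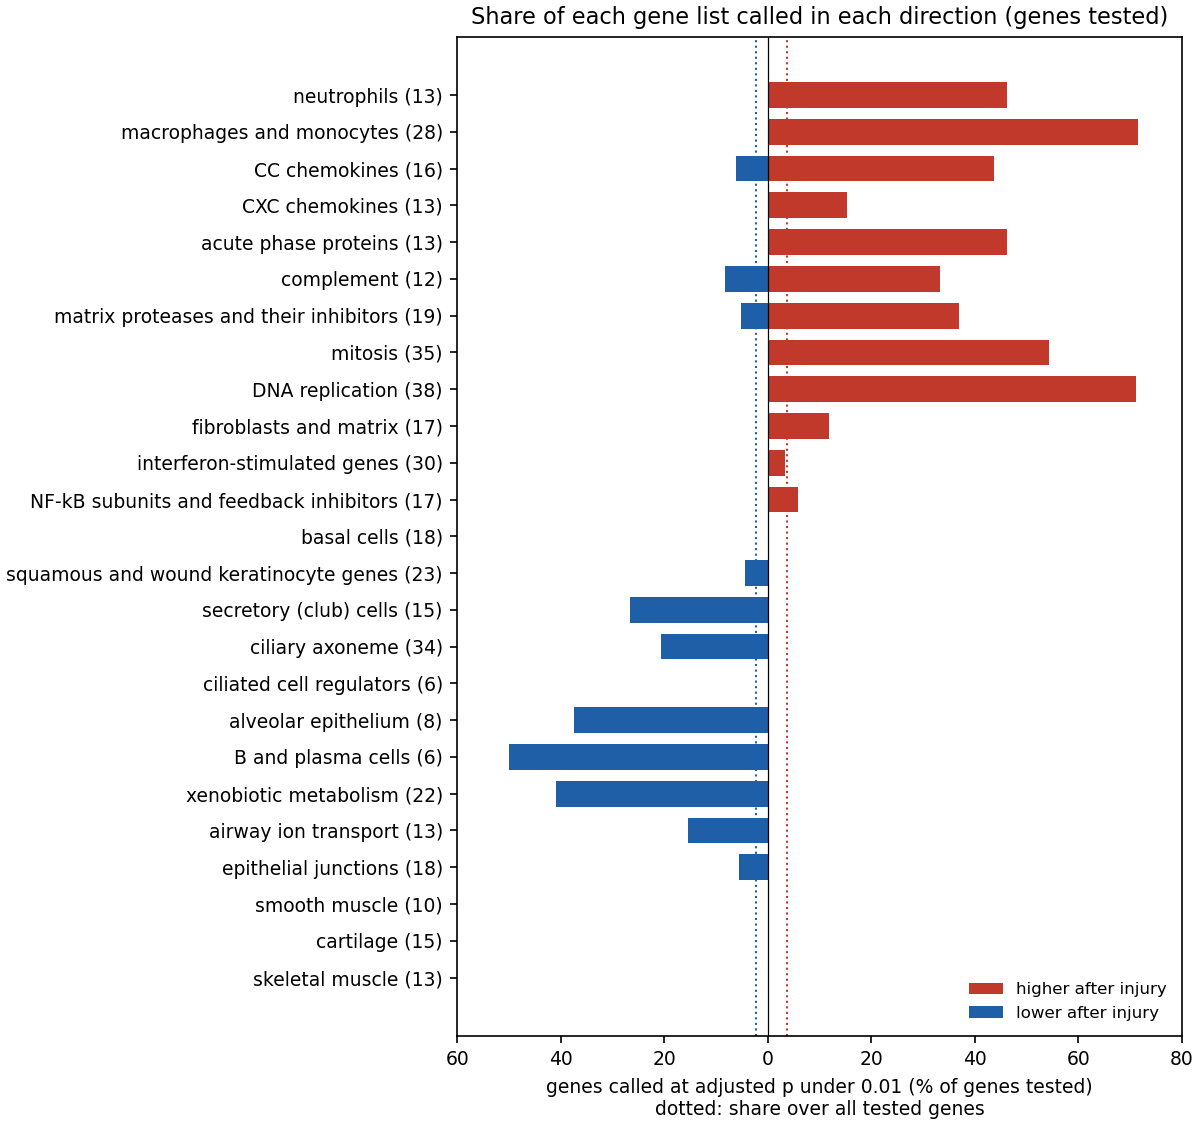
Share of the tested genes of 25 lists that was called higher (red, to the right) or lower (blue, to the left) after injury, in percent, with the number of genes tested in parentheses and dotted lines at the shares over all tested genes (3.68% and 2.32%). Macrophage, DNA replication and mitosis lists have the longest red bars, and the blue bars belong mainly to secretory, ciliary, alveolar, B and plasma cell and xenobiotic lists.

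Some secretory cell genes fell, among them the secretoglobins Scgb1a1 and Scgb3a2, and most did not pass the test. Of the 15 tested members of the list, 4 were called lower and none higher, with a median difference of -0.62 and 14 of 15 differences below 0. Scgb1a1, the club cell secretory protein, had signals of 7.93, 7.06, 6.98, 7.12 and 7.41 in uninjured replicates 1 to 5 and of -1.13, -1.16, -0.42, -0.29 and -0.08 in injured replicates 1 to 5. No other gene fell as far, by 7.91 ± 0.69 (SE, adjusted p = 1.05e-05), and within the slides the difference ranged from -9.06 to -7.39. Scgb3a2, a related secretoglobin, had 9.66, 9.16, 8.86, 8.90 and 9.60 in uninjured and 2.68, 4.12, 3.78, 4.16 and 2.59 in injured tracheas, a fall of 5.77 ± 0.83 (SE, adjusted p = 0.000394). The injured arrays lay far below every uninjured array for both genes.

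Other secretory products fell less or were not called. Bpifa1, a defence protein also called SPLUNC1, had 9.17, 8.50, 8.59, 8.60 and 9.39 in uninjured and 7.0, 6.58, 6.34, 7.02 and 6.14 in injured tracheas, with no overlap and a fall of 2.24 ± 0.31 (SE, adjusted p = 0.000372). Aldh1a1, a retinal dehydrogenase, fell by 2.06 (adjusted p = 0.00708), with the injured replicate 3 value left out as an outlier spot, and was called under 12 of the 22 alternative settings, not with slide as a block (adjusted p = 0.0131). Scgb3a1, another secretoglobin, was not called and its groups overlapped, with 9.44, 8.73, 8.23, 8.71 and 9.44 in uninjured and 9.13, 8.53, 8.59, 8.79 and 8.96 in injured tracheas (difference -0.11 ± 0.23 SE, adjusted p = 0.808). Cyp2f2, a club cell cytochrome (difference -0.61), the gel-forming mucin Muc5b (0.14) and the mucus cell regulator Spdef (-0.24) were not called either, and no probe for Muc5ac was found under that name. In the list of glands and luminal antimicrobials, 1 of 12 tested genes was called, Bpifb5, a protein of the same family as Bpifa1, which rose by 4.41 ± 0.50 (SE, adjusted p = 8.02e-05). Its signals were -0.65, -0.28, -1.64, -0.92 and -0.93 in uninjured and 3.71, 2.77, 3.48, 3.10 and 4.58 in injured tracheas. Another member of the family, Bpifb9a, was among the largest rises (4.72, adjusted p = 0.00367), although its rise within slides ranged from 0.88 to 9.75 and the call was lost without uninjured replicate 5, without injured replicate 2 and in the fit of the wild-type arrays alone (adjusted p at most 0.0115 over the alternatives). Thus Bpifa1 was lower and 2 of its relatives were higher after injury.

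Several enzymes that act on foreign chemicals fell. Of 22 tested genes 9 were called lower, none was called higher, all 22 differences were below 0 and the median was -1.34. The cytochrome Cyp4b1 had 6.35, 5.78, 5.41, 5.43 and 6.02 in uninjured and 1.72, 2.13, 1.69, 3.25 and 1.56 in injured tracheas (difference -3.73 ± 0.53 SE, adjusted p = 0.00038), with no overlap. The aldehyde oxidase Aox3 fell by 2.25 (adjusted p = 0.00028) and the sulfotransferase Sult1d1 by 4.26 (adjusted p = 0.0054), the last called under 14 of the 22 alternatives, not with slide as a block (adjusted p = 0.0126). Fmo2, Gsta3, Gstm1, Gstm2 and Cyp2a5 were also called lower. The count was 5 without uninjured replicate 1, injured replicate 1 or injured replicate 5. None of 15 antioxidant genes was called, and their median difference was 0.07. They included Hmox1 (0.94), Nqo1 (-0.81) and Gclm, the modifier subunit of glutamate-cysteine ligase (-0.26). Gclc, the catalytic subunit, had a difference of -1.14 with no overlap (adjusted p = 0.0134) and was called under 6 of the 22 alternatives. Of 13 airway ion transport genes, 2 were called lower, the secreted chloride channel regulator Clca1 (difference -3.34, adjusted p = 0.0016) and the chloride channel Ano1 (-0.74, adjusted p = 0.00715, called under 12 of 22 alternatives), while the chloride channel Cftr was not called (-0.40).

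Some surfactant protein genes were among the falls, and the cells that gave their RNA were not tested. Sftpa1 had 4.05, 3.36, 2.78, 2.76 and 3.53 in uninjured and -4.14, -1.89, -7.11, -4.10 and -4.25 in injured tracheas, a fall of 7.59 ± 0.96 (SE, adjusted p = 0.000146). Sftpc fell by 3.91 (adjusted p = 0.00144) and Sftpd by 1.87 (adjusted p = 0.00295), the latter with adjusted p above 0.01 without injured replicate 1, and the other 5 tested members of the alveolar list, Sftpb, Lamp3, Ager, Napsa and Abca3, were not called. Of 6 tested neuroendocrine and tuft cell genes, 1 was called lower and none higher, with a median of -0.83. It was Trpm5, the cation channel of tuft cells, which had -1.58, -1.72, -2.08, -2.01 and -1.76 in uninjured and -5.81, -5.90, -5.74, -4.57 and -6.18 in injured tracheas (difference -3.81 ± 0.52 SE, adjusted p = 0.000273) and only 1 injured array had signal well above background. Dclk1, another tuft cell marker (0.79), and Calca, of neuroendocrine cells (1.19), had differences above 0 that were not called. The large falls outside the lists included Aoc1, the diamine oxidase that degrades histamine (-5.58, adjusted p = 0.000456), and Marchf4, a membrane-bound ubiquitin ligase (adjusted p = 0.000276), which no injured array measured well above background, a fall of at least 9.91-fold. The remaining genes and transcripts among the 12 largest falls, AK081945, Fam216b, BC007180, 3300002A11Rik, Gtsf1l and TC1511291, have no role that can be stated here. Of these, AK081945 and BC007180 were well above background on all 5 uninjured and on no injured array and were at least 52.0-fold and 13.7-fold lower.

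Some genes of the ciliary axoneme fell after injury, and no regulator of ciliated cell differentiation was called. All 34 tested axoneme genes had differences below 0, with a median of -1.94, and 7 were called lower. Sntn, which encodes a protein of the ciliary tip, had 0.16, -0.45, -1.25, -0.60 and -0.86 in uninjured tracheas, was not well above background in any injured one, and fell at least 21.0-fold (adjusted p = 0.000104). Dnah9, an outer dynein arm heavy chain, fell by 4.10 ± 0.67 (SE, adjusted p = 0.000938). Spag16, of the central apparatus, fell by 4.93 ± 1.02 (SE, adjusted p = 0.00406), and Dnah5, another outer arm heavy chain, by 3.94 ± 0.79 (SE, adjusted p = 0.00319). Hydin and Rsph4a, of the central apparatus and the radial spoke, and the adenylate kinase Ak7 were the other called members. Spag16, Dnah5, Rsph4a and Ak7 were called under 16, 20, 15 and 9 of the 22 alternatives and the others under all 22, and with slide as a block the calls of Spag16 (adjusted p = 0.0104), Rsph4a (adjusted p = 0.0122) and Ak7 (adjusted p = 0.0158) were lost. Tekt1, a tektin of the doublet microtubules (-1.41, adjusted p = 0.285), and Dynlrb2, a dynein light chain (-2.21, adjusted p = 0.122), were not called, with overlapping groups.

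The 5 injured tracheas were far from alike in these genes. Over the axoneme list, the mean difference from the uninjured mean was -3.92 and -3.38 in injured replicates 1 and 5 and -1.28, -1.31 and -1.09 in injured replicates 2, 3 and 4, against -0.63 to 0.54 in the uninjured arrays. In 33 of the 34 genes, replicates 1 and 5 were the lowest injured arrays. Dnah5 had -3.38, -1.51, -0.90, -1.50 and -3.66 in injured replicates 1 to 5 and 2.11, 1.69, 1.27, 2.00 and 1.69 in the uninjured ones. The regulators as a list differed between the same arrays. None of the 6 tested was called, 4 of the 6 differences were below 0 and the median was -0.23, while the list mean was -0.97 and -1.16 in injured replicates 1 and 5 and 1.09, 0.97 and 1.30 in injured replicates 2, 3 and 4. Foxj1, the transcription factor that directs motile cilium formation, had 0.17, 3.82, 3.68, 4.74 and 0.60 in injured replicates 1 to 5 and 3.82, 2.88, 2.39, 3.03 and 2.93 in uninjured ones (difference -0.41 ± 0.85 SE, adjusted p = 0.806). Ccno, needed to multiply centrioles in ciliated cell precursors, had 1.12, 4.82, 4.36, 5.54 and 1.52 in injured tracheas against 1.20, 0.97, 0.14, 0.97 and 1.02 (difference 2.61 ± 0.75 SE, adjusted p = 0.026). Myb, which acts early in multiciliated cells, had 1.10, 3.42, 3.71, 4.49 and 1.09 against 2.03, 1.59, 0.97, 1.36 and 1.68 (difference 1.24, adjusted p = 0.241). Rfx3, a factor of ciliary genes, did not share this split, with -3.53, -4.94, -3.85, -6.69 and -4.38 in injured tracheas against -3.31, -4.18, -4.63, -3.53 and -2.99 (difference -0.95, adjusted p = 0.247). Trp73 (-0.95) and Rfx2 (-0.06) were not called either, and both were lowest in injured replicates 1 and 5. In injured replicates 2, 3 and 4, Ccno and Myb were above every uninjured array, and Dnah5 and Sntn were below the lowest. Other axoneme genes were not lower in these 3 tracheas. Zmynd10 had 2.42, 1.99 and 3.03 there against 0.78 to 1.67 in uninjured tracheas. Lrrc23 had 4.27, 3.78 and 4.45 against 2.57 to 3.95. Both were low in injured replicates 1 and 5.

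Injured replicates 1 and 5 were also the pair scanned on the later day, together with uninjured replicates 1 and 5. Within the earlier day, the injury difference of Foxj1 was 1.31, and within the later day it was -2.99. The axoneme list had 5 genes called lower within the earlier day and 25 within the later day, with medians of -0.95 and -3.74. Tested probe by probe over the whole array by limma, the injury difference did not differ between the days at an adjusted p under 0.01 for any probe. The smallest adjusted p was 0.0702. At an unadjusted p under 0.05 there were 2644 of the 26075 probes, where chance alone gives a share of about 0.05. The later day held 2 arrays of each group, so that the test can miss differences of single probes. Uninjured arrays of the 2 days differed little over the axoneme list (-0.05 and 0.54 on the later day, -0.63 to 0.11 on the earlier day). Injured replicates 1 and 5 also had the highest means over the neutrophil list, 3.33 and 4.68 against 2.16 to 2.64 in the other injured arrays, and over the macrophage, CC chemokine, acute phase and matrix protease lists. The part of the scanning day, the slides and the animals in this split was not tested. The count of called axoneme genes was 4 without uninjured replicate 1, 2 or 4 and 3 without injured replicate 1 or 5, 4 with slide as a replicate block, and 13 in the fit of the 10 wild-type arrays alone.

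**Figure D3:**
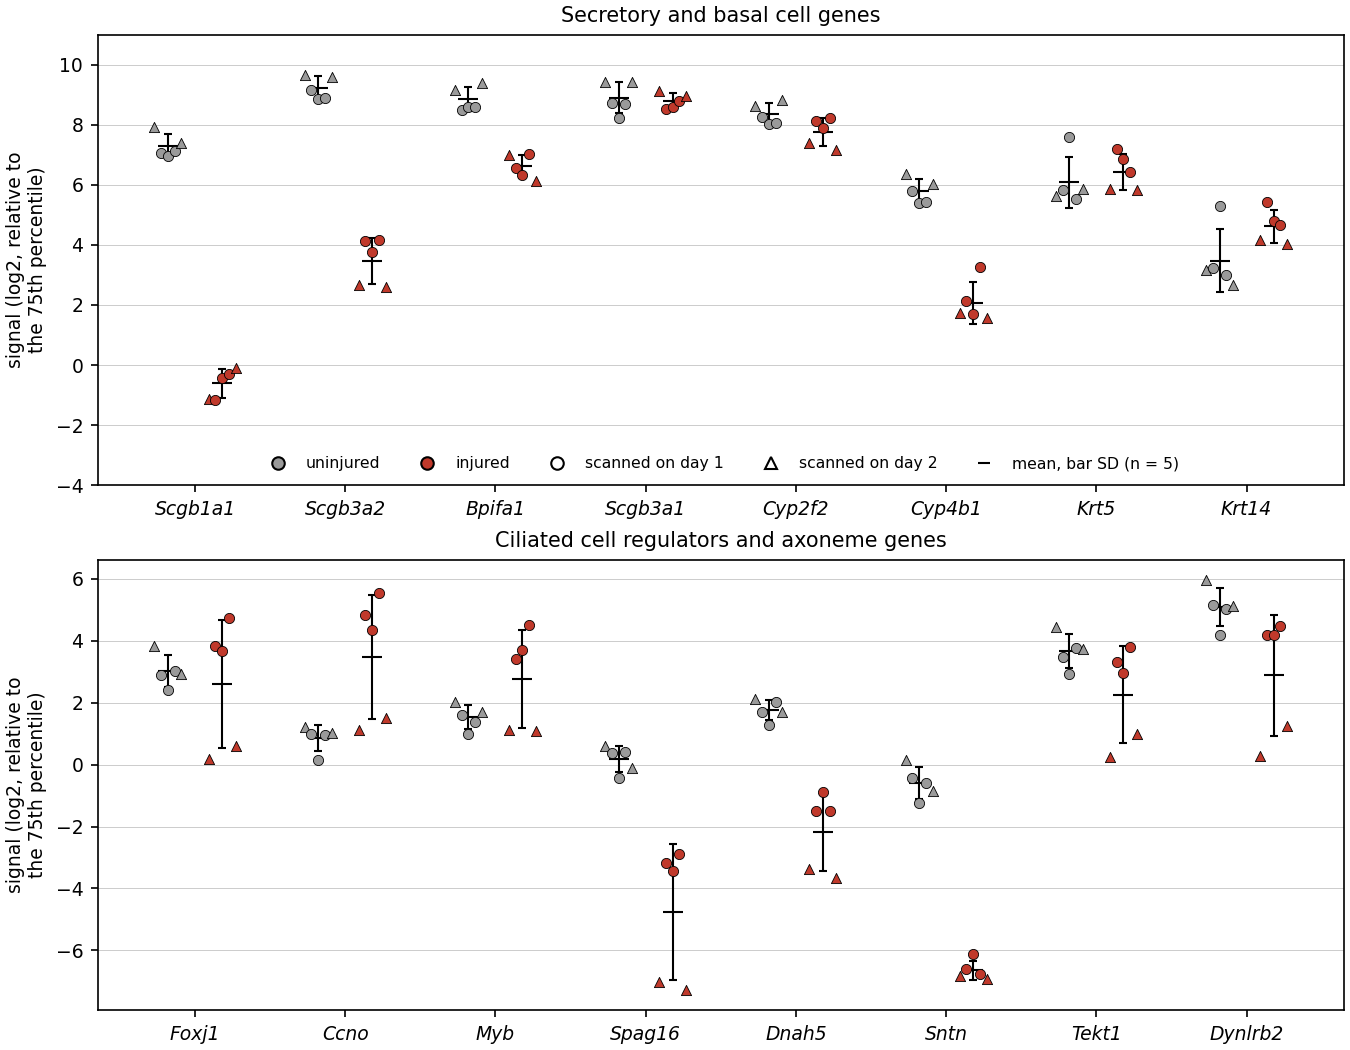
Signal of each array (log2 relative to the 75th percentile) for secretory and basal cell genes (top) and for ciliated cell regulators and axoneme genes (bottom) in uninjured (grey) and injured (red) wild-type tracheas, circles for arrays scanned on the earlier day and triangles for the later day, with mean and SD (n = 5). Foxj1, Ccno and Myb of injured tracheas fall into 3 high circles and 2 low triangles, while Scgb1a1 and Sntn are low on all 5 injured arrays.

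A promoter of the cilium tip gene Sntn is shown because it carries, in its last 120 bases before the annotated start, a motif of the RFX factors, which act on ciliary genes. The motif searched was GTTGCCA on either strand, and its match is in capitals. The sequence is from RefSeq, GRCm38.p6, chr14:13670756-13670875, plus strand, and 4.38% of all 32851 promoters of 300 bases held the motif. The match is a description of these letters only.

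Sntn: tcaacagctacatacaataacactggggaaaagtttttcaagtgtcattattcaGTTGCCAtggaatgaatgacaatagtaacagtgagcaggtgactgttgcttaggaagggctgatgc

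Basal cell genes as a group were not called. None of 18 tested members passed, although 16 differences were above 0 and the median was 0.34. Krt14 had 3.15, 3.22, 5.31, 3.01 and 2.68 in uninjured and 4.17, 5.43, 4.78, 4.67 and 4.03 in injured tracheas (difference 1.14 ± 0.55 SE, adjusted p = 0.196). Uninjured replicate 3 was higher for Krt14 than 4 of the 5 injured arrays and was the array of the highest Krt5 signal, 7.60. The same array stood out in squamous keratinocyte genes, where its mean difference over the 23 tested genes was 2.93 against -1.20 to -0.37 in the other uninjured and -0.63 to 0.83 in the injured arrays, and it was the highest of all 10 arrays for 17 of the 23. Krt13, a keratin of squamous epithelium, had 7.08 there and 1.57 to 2.53 in the other uninjured tracheas, and the major envelope protein Lor was 8.65. Whether this trachea carried squamous epithelium of another site or of its own was not tested. Without it, basal genes had 0 calls and a median of 0.51, and squamous genes had 1 call in each direction. With all arrays, 1 squamous gene was called, Sprr2g, a small proline-rich protein, which fell by 3.44 ± 0.57 (SE, adjusted p = 0.00102) from 3.01, 1.29, 0.76, 0.83 and 1.62 to -1.96, -1.91, -1.70, -1.95 and -2.17. Its relatives Sprr2b, Sprr2d, Sprr2e and Sprr2f had differences of 1.50, 1.77, 2.18 and 2.10 and were not called, and probes of such near-identical genes may share signal.

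Many genes of cell division rose. Of 38 tested DNA replication genes, 27 were called higher, none was called lower, all 38 differences were above 0 and the median was 1.64. Ccne1, the cyclin that opens S phase, had -0.81, -1.10, -0.10, -1.43 and -0.94 in uninjured and 1.49, 1.91, 1.57, 2.09 and 1.16 in injured tracheas, a rise of 2.52 ± 0.35 (SE, adjusted p = 0.000276). Cdt1, which loads the replicative helicase, rose by 2.43 ± 0.36 (SE, adjusted p = 0.000492), and Uhrf1, which maintains DNA methylation behind the fork, by 2.41 ± 0.44 (SE, adjusted p = 0.00196). The injured arrays lay above all uninjured arrays for these genes and for 32 of the 38 members, against 8.66% of all tested genes with injured arrays above and 5.02% with injured arrays below. Mcm10, of the helicase complex, had the largest rise of the list (2.73, adjusted p = 0.00891, called under 12 of the 22 alternatives), and Pcna, the sliding clamp, was not called at 0.83 (adjusted p = 0.012).

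Of 35 tested mitosis genes, 19 were called higher and none lower, with a median of 2.18. Plk1, the kinase that drives mitotic entry and spindle assembly, had -0.64, -1.10, 1.41, -0.79 and -0.05 in uninjured and 2.52, 3.19, 2.96, 2.93 and 2.02 in injured tracheas, a rise of 2.96 ± 0.55 (SE, adjusted p = 0.00208). Ccnb1, the main mitotic cyclin, rose by 2.77 ± 0.53 (SE, adjusted p = 0.00235) and Ccnb2 by 2.59 ± 0.49 (SE, adjusted p = 0.00235), and Birc5, or survivin, of the chromosomal passenger complex, by 2.60 ± 0.54 (SE, adjusted p = 0.00439, called under 16 of the 22 alternatives). Uninjured replicate 3 was the highest uninjured array for each of the 4. Over the list its mean difference was 1.17 against -0.47 to 0.00 in the other uninjured and 1.62 to 2.50 in the injured arrays, and without it 22 genes were called and the median was 2.47. Mki67, the proliferation antigen, had 0.40, 0.26, 2.00, 0.59 and 1.43 in uninjured and 3.32, 1.40, 3.66, 0.51 and 3.44 in injured tracheas and was not called (difference 1.53 ± 0.64 SE, adjusted p = 0.129). Injured replicates 2 and 4 were within the uninjured range for Mki67, although both were above every uninjured array for Plk1. Pttg1, the securin, was the sole member below 0 (-0.47, adjusted p = 0.4). The mitosis count was 10, 8 and 8 without uninjured replicate 1, 2 or 4, 12, 11 and 10 without injured replicate 1, 2 or 3, and 15 and 0 within the earlier and the later scanning day, where medians were 2.15 and 2.12. The DNA replication count was 4 within the later day.

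Promoters of mitosis genes are shown because 19 of the list were called in the same direction and because many of them share the cell cycle genes homology region (CHR), read here as TTTGAA or TTCGAA on either strand, and the CCAAT box, read as CCAAT on either strand. Of the 31 tested mitosis genes with a promoter in the RefSeq table (250 bases before to 50 after each start, GRCm38.p6), 74.2% held a CHR and 74.2% a CCAAT box, against 21.7% and 41.1% of all 27025 genes in the table and 19.2% and 37.4% of all 32851 promoters. In these spellings the motifs can share no more than 1 base. Among the 15 called members with a promoter, 5 held both motifs within the last 120 bases before the start. The 3 of these with the largest rises were Cdk1, the mitotic kinase (2.54, adjusted p = 0.00965), Cdc20, an activator of the anaphase-promoting complex (2.34, adjusted p = 0.00245), and Ube2c, its ubiquitin-conjugating enzyme (2.21, adjusted p = 0.00715). Cdk1 and Ube2c were called under 12 and 11 of the 22 alternatives, and Ube2c was not called with slide as a block (adjusted p = 0.0139). Their stretches lie at chr10:69352913-69353032 on the minus strand, chr4:118437344-118437463 on the minus strand and chr2:164769809-164769928 on the plus strand, written 5′ to 3′ with CHR and CCAAT matches in capitals.

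Cdk1: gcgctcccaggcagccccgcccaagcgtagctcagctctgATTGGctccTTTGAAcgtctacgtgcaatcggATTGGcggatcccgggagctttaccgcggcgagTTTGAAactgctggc

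Cdc20: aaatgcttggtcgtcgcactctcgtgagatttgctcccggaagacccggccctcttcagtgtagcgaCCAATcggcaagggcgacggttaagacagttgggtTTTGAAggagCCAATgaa

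Ube2c: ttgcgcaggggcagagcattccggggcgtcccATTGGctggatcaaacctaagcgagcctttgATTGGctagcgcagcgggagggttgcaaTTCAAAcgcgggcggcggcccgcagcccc

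Most macrophage and monocyte genes rose. Of 28 tested members of the list, 20 were called higher and none lower, with a median of 2.28. Cd68, a lysosomal protein of macrophages, had -0.83, -1.33, -0.50, -0.97 and -1.07 in uninjured and 2.66, 2.90, 1.21, 2.14 and 2.74 in injured tracheas, a rise of 3.27 ± 0.53 (SE, adjusted p = 0.000908). Adgre1, which encodes the F4/80 antigen, had 1.32, 0.80, 0.48, 0.73 and 0.96 against 3.91, 2.64, 1.95, 2.55 and 3.38 (rise 2.03 ± 0.42 SE, adjusted p = 0.00408), and its adjusted p exceeded 0.01 without uninjured replicate 2 or 4 or injured replicate 1 or 5. The groups did not overlap for either gene, with injured replicate 3 the lowest injured array in both. The largest rises of the list were those of Chil3, a chitinase-like protein of activated macrophages (4.68, adjusted p = 0.0012), the scavenger receptor Msr1 (3.93, adjusted p = 0.00166), Ms4a6d (3.80, adjusted p = 0.00179) and the lipid receptor Trem2 (3.61, adjusted p = 0.00146). Complement component genes C1qa, C1qb and C1qc rose by 1.78, 1.77 and 1.58. Lyz2, or lysozyme M, ranged from 8.20 to 9.04 in uninjured and from 8.28 to 8.91 in injured tracheas and was not called (-0.06), and Retnla, a product of alternatively activated macrophages, had a difference of -1.74 that was not called (adjusted p = 0.0323). The count was 13 without uninjured replicate 4 and 12 without injured replicate 1.

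Under 50% of the tested neutrophil genes were called, although their median difference was above that of the macrophage list. Of 13 tested genes, out of 19 on the array, 6 were called higher and none lower, and the median was 3.90. Clec4e and Clec4d, lectin receptors of neutrophils and monocytes, had the largest rises (5.96 ± 1.01 SE, adjusted p = 0.00115, and 5.55 ± 1.19 SE, adjusted p = 0.00503, the latter called under 15 of 22 alternatives). Clec4e had -3.15, -5.75, -6.20, -5.55 and -6.22 in uninjured and 1.48, -0.16, -0.25, -0.68 and 2.53 in injured tracheas. Fpr1 and Fpr2, receptors for formylated peptides, rose by 4.55 (adjusted p = 0.00248) and 4.28 (adjusted p = 0.00918, called under 9 of 22 alternatives and not with slide as a block, adjusted p = 0.0145), the receptor for granulocyte colony-stimulating factor, Csf3r, by 4.05 (adjusted p = 0.0038) and Padi4, which citrullinates histones, by 1.83 (adjusted p = 0.00562, and 0.0116 with slide as a block). Csf3r and Padi4 were called under 19 and 13 of the 22 alternatives. The list members Cd177 and Mpo were not called. Cd177 had a difference of -1.05 (adjusted p = 0.0721), with every injured array below every uninjured one, and Mpo one of 0.29. S100a8, a subunit of calprotectin, had 1.16, -1.54, -3.09, -1.95 and -2.36 against 2.51, 0.68, 2.30, 1.09 and 5.15 and was not called (difference 3.90 ± 1.12 SE, adjusted p = 0.0269). Uninjured replicate 1 was the highest uninjured array for Clec4e, Clec4d and S100a8, and its mean over the list was 1.43 above the uninjured mean, against -0.60 to -0.18 in the other uninjured and 2.16 to 4.68 in the injured arrays. Mmp8, a neutrophil collagenase that did not pass the filter, was well above background on all 5 injured and on no uninjured array (at least 3.48-fold higher), whereas the granule genes Ngp and Elane, made in immature neutrophils, were well above background on none of the 10 arrays. The count was 2, 3 and 3 without uninjured replicate 2, 4 or 5, 2, 3 and 2 without injured replicate 1, 2 or 5, and 2 within the later scanning day.

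Other leukocyte lists differed. Of 14 tested T and NK cell genes, 1 was called, Thy1 (1.08, adjusted p = 0.00409, called under 16 of 22 alternatives), which fibroblasts also express, while Cd3e (-0.09) and Cd4 (0.04) were not. None of 7 mast cell genes was called, and of 9 genes of MHC class II presentation only Itgax, the CD11c integrin chain, was (1.58, adjusted p = 0.00618, called under 13 of 22 alternatives and not with slide as a block, adjusted p = 0.0109), with H2-Aa (-0.05) and Cd74 (0.24) not called. Of 6 tested B and plasma cell genes, 3 were called lower and none higher. Mzb1, a plasma cell chaperone, had -1.03, -1.91, -2.67, -0.88 and -1.91 in uninjured and -3.54, -3.58, -3.26, -3.12 and -3.28 in injured tracheas (difference -1.68 ± 0.28 SE, adjusted p = 0.000989). Jchain, which joins polymeric immunoglobulins, varied from -0.94 to 4.37 among uninjured arrays and fell by 4.28 (adjusted p = 0.00366), with overlapping groups and a call under 16 of the 22 alternatives.

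Some chemokines and acute phase proteins were among the largest rises. Of 16 tested CC chemokines, 7 were called higher and 1 lower. Ccl3, or MIP-1 alpha, had -4.03, -6.54, -7.21, -6.20 and -6.27 in uninjured and -0.10, -0.63, -0.54, -0.85 and 1.79 in injured tracheas, a rise of 5.98 ± 0.90 (SE, adjusted p = 0.000543). The monocyte attractants Ccl7 and Ccl2 rose by 3.59 (adjusted p = 0.000465) and 3.32 (adjusted p = 0.000482), and Ccl6, Ccl4, Ccl8 and Ccl9 by 3.54, 3.39, 3.38 and 3.18, of which the rise of Ccl4 was not called with slide as a block (adjusted p = 0.011). Ccl20, an epithelial chemokine for dendritic and type 17 T cells, moved the other way, from -0.56, -1.42, -1.15, -1.64 and -0.66 to -4.38, -3.97, -5.12, -5.71 and -4.02 (fall of 3.55 ± 0.58 SE, adjusted p = 0.000908). Injured arrays lay wholly above the uninjured for Ccl3 and wholly below for Ccl20.

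Among 13 tested CXC chemokines, the 2 called genes, Ppbp (6.10 ± 0.96 SE, adjusted p = 0.000733) and Pf4 (2.52 ± 0.55 SE, adjusted p = 0.00534, called under 16 of 22 alternatives), encode chemokines stored in platelets. Ppbp had -0.77, -2.68, -0.66, -1.79 and -1.65 in uninjured and 4.80, 4.49, 5.32, 3.96 and 4.36 in injured tracheas, with an SD of 0.51 among the injured arrays, the smallest among the 12 largest rises. The neutrophil attractants Cxcl1 (0.81) and Cxcl5 (-0.70) were not called. None of 10 tested interleukins and colony-stimulating factors was called, with Il1b at 3.84 ± 1.07 (SE, adjusted p = 0.0228). Il6 and Osm, members of that list that did not pass the filter, were well above background on 4 and 5 injured arrays and on no uninjured array.

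Saa3, a serum amyloid A protein, had -3.61, -6.80, -4.64, -4.77 and -3.11 in uninjured and 3.20, 0.45, 2.48, 2.69 and 6.16 in injured tracheas, the largest rise of all (7.58 ± 1.10 SE, adjusted p = 0.000407). In all, 6 of 13 acute phase genes were called higher and none lower, with a median of 1.34. Serpina3n, a protease inhibitor, was more even than Saa3, with -3.32, -2.0, -2.10, -2.45 and -2.91 against 1.41, 1.49, 1.09, 1.85 and 1.17 (rise 3.96 ± 0.49 SE, adjusted p = 0.000116). Saa1 rose by 3.67 (adjusted p = 0.000822) and Lcn2, the siderophore-binding lipocalin 2, by 3.62 (adjusted p = 0.00207). For Saa3, Saa1 and Lcn2 alike, injured replicate 5 was the highest and injured replicate 2 the lowest injured array. Of 12 complement genes, 4 were called higher, the receptor C3ar1 (3.28), properdin Cfp (2.28), C4b (1.04) and factor B Cfb (1.00), and Cd55, which limits complement on cell surfaces, fell by 1.67 (adjusted p = 0.000293).

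Further large rises were seen in single genes of clotting, lipid transport and macrophage activation. F10 and F7, which encode coagulation factors X and VII, rose by 5.86 (adjusted p = 0.000733) and by at least 18.7-fold (adjusted p = 0.00156), F7 being well above background on all 5 injured and on no uninjured array. Il1rl1, the receptor for interleukin 33, was likewise well above background on all 5 injured and no uninjured arrays and was at least 13.1-fold higher (adjusted p = 0.000947). Apoc2, an apolipoprotein, rose by 5.18 (adjusted p = 0.000546). Acod1, which makes itaconate in activated macrophages, rose by 5.80 (adjusted p = 0.00606, called under 13 of the 22 alternatives and not with slide as a block, adjusted p = 0.012).

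**Figure D4:**
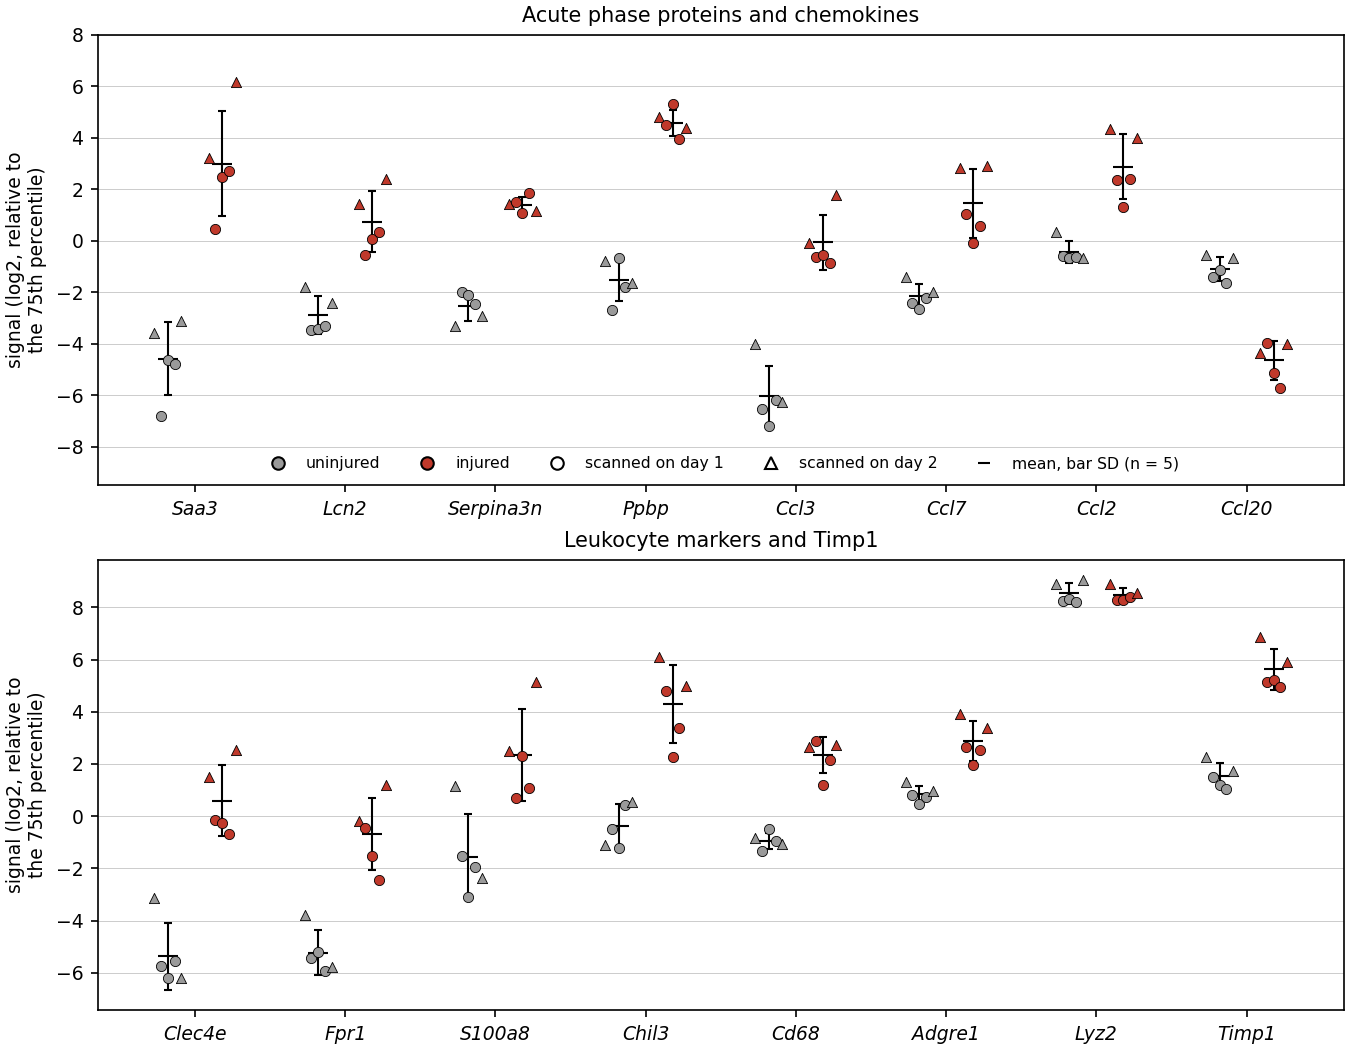
Signal of each array (log2 relative to the 75th percentile) for acute phase and chemokine genes (top) and leukocyte markers with Timp1 (bottom) in uninjured (grey) and injured (red) wild-type tracheas, circles for the earlier and triangles for the later scanning day, with mean and SD (n = 5). All genes shown except S100a8, Lyz2 and Ccl20 have every injured array above every uninjured one, Ccl20 has them below, and for Lyz2 the groups overlap.

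Lists of signalling were called in few members. Of 17 tested NF-kB subunits and feedback inhibitors, only Traf1, an adaptor of tumour necrosis factor receptors, was called (1.27, adjusted p = 0.00247), and of 30 interferon-stimulated genes only Zbp1, a nucleic acid sensor (1.72, adjusted p = 0.00241), although 28 of the 30 differences were above 0 and their median was 0.53. These are 1 in 17 and 1 in 30, near the share over all genes. Myd88 itself had a difference of 0.58 that was not called (adjusted p = 0.0111). None of 10 tested EGF receptors and ligands was called by its brightest probe. For the ligand Nrg1 that probe had a difference of 1.73 with no overlap (adjusted p = 0.0113). Of the 3 tested probes of Nrg1, 1 was called higher.

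Matrix remodelling genes rose in part. Of 19 tested proteases and inhibitors, 7 were called higher and 1 lower. Timp1, an inhibitor of metalloproteases, had 2.25, 1.49, 1.18, 1.05 and 1.74 in uninjured and 6.87, 5.16, 5.24, 4.94 and 5.92 in injured tracheas (rise 4.08 ± 0.65 SE, adjusted p = 0.000793). Timp3, an inhibitor bound to the matrix, fell by 0.85 (adjusted p = 0.00341, with uninjured replicate 2 left out as an outlier spot). The metalloproteases Mmp19 and Mmp3 rose by 2.74 (adjusted p = 0.000822) and 2.68 (adjusted p = 0.00165), and Mmp9, Plau and Mmp14 were also called higher, Plau not with slide as a block (adjusted p = 0.0103). The count was 4 without uninjured replicate 4, injured replicate 1 or injured replicate 5. Of 17 fibroblast and matrix genes, Tnc, a glycoprotein of wounds (1.84, adjusted p = 0.00818), and Col5a1 (1.52, adjusted p = 0.0089) were called, with a list median of 0.93 and Col1a1 at 0.95 (adjusted p = 0.0696), and neither was called without uninjured replicate 3, nor Col5a1 with slide as a block (adjusted p = 0.0181). Selp, the P-selectin of activated endothelium and platelets, was the only call among 13 endothelial genes (2.63 ± 0.42 SE, adjusted p = 0.000791), and Pecam1 was not called (0.46).

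Structural tissues of the tracheal wall had no calls. None of 10 smooth muscle genes, 15 cartilage genes or 7 nerve and Schwann cell genes was called, and their medians were -0.05, -0.13 and 0.08. Acta2, or alpha smooth muscle actin, had 7.11, 6.74, 6.74, 6.78 and 6.76 in uninjured and 6.82, 7.06, 6.83, 7.16 and 6.39 in injured tracheas (difference 0.03 ± 0.17 SE, adjusted p = 0.934). Among neighbouring tissues, skeletal muscle, white fat, brown fat and thyroid lists had no calls and medians of -0.35, -0.29, -0.65 and -0.15, and the cardiac list had 1, Tnnt2, which fell by 2.56 ± 0.42 (SE, adjusted p = 0.000932) while the other 7 tested members were not called. Some genes of neighbouring tissues were bright, with uninjured means of 9.01 for Tnnc2 (skeletal muscle), 7.46 for Fabp4 (white fat) and 7.62 for Tg (thyroid). Over the skeletal muscle list, injured replicate 3 was lowest with a mean difference of -1.25, against -0.39 to 0.04 in the other injured arrays.

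**Figure D5:**
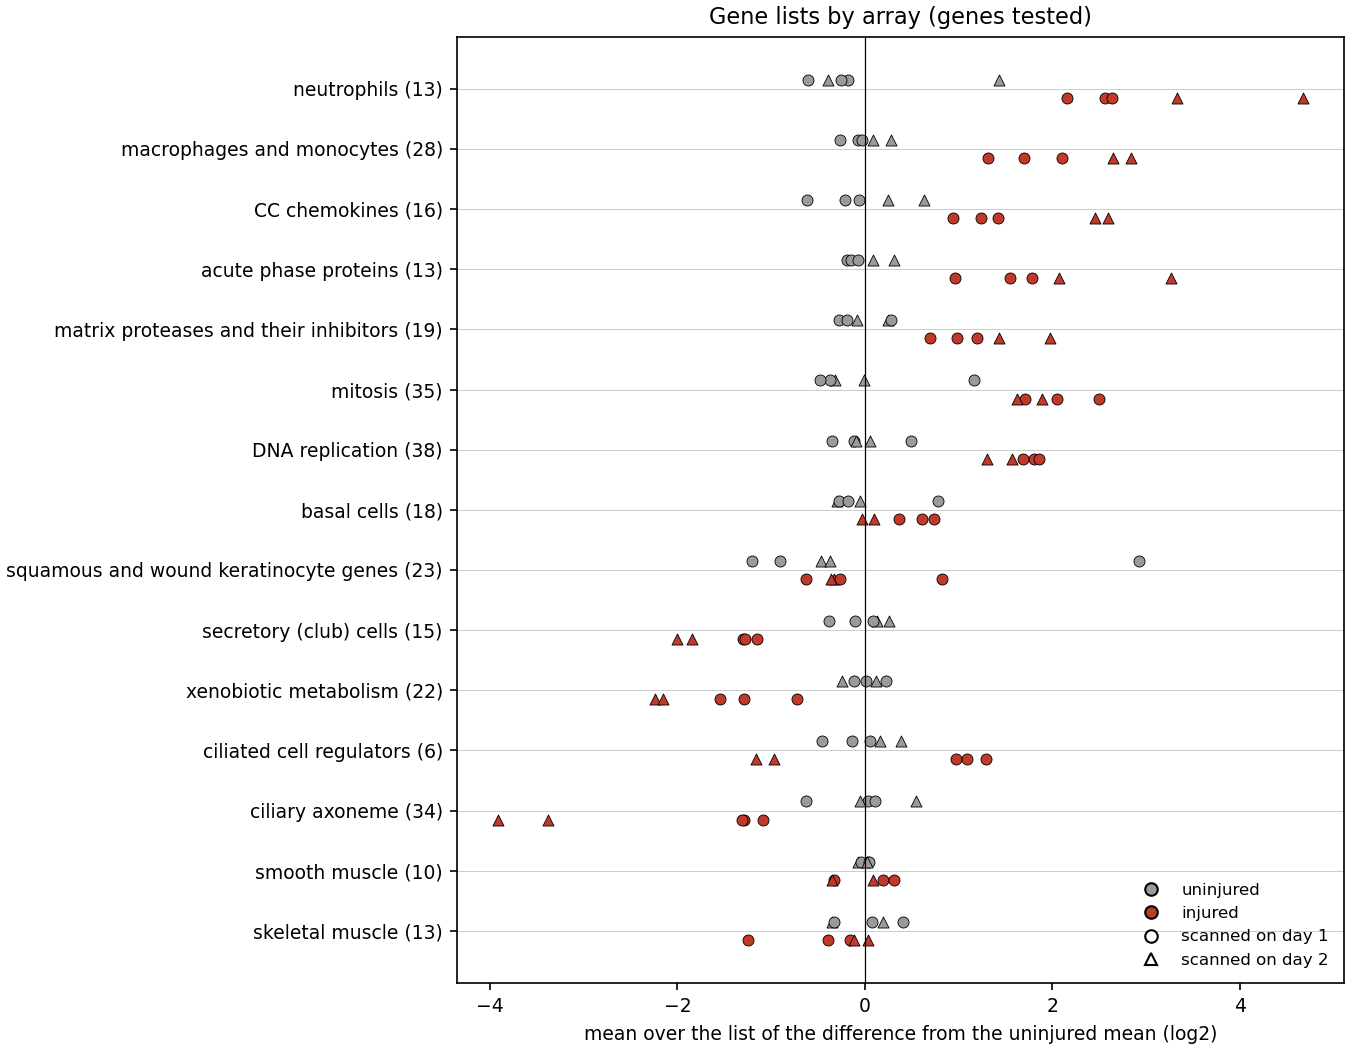
Mean over the tested genes of each list of the difference from the uninjured mean (log2, horizontal axis) for each uninjured (grey) and injured (red) array, circles for the earlier and triangles for the later scanning day, with the number of genes in parentheses. Injured arrays lie apart from uninjured arrays for the neutrophil, macrophage, CC chemokine, acute phase, protease, mitosis, DNA replication, secretory, xenobiotic and axoneme lists, injured replicates 1 and 5 (triangles) are farthest from 0 for the axoneme list, and uninjured replicate 3 is at 2.93 for the squamous list.

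Metabolic and housekeeping lists shifted by small amounts with few calls. Of 17 fatty acid oxidation genes, 16 had differences below 0 (median -0.50) and 1, Decr1, was called lower (-0.79, adjusted p = 0.00759), and of 11 fatty acid synthesis genes the desaturase Scd1 was called lower (-1.39, adjusted p = 0.00882), both called under at most 10 of the 22 alternatives and not with slide as a block (adjusted p = 0.0116 and 0.0152). None of 15 glycolysis, 18 cholesterol synthesis or 15 unfolded protein response genes was called. Of 83 cytosolic ribosomal protein genes, 81 had differences above 0 with a median of 0.30 and 2 were called, Rpl14 and Rpl10a, neither with slide as a block (adjusted p = 0.0122 and 0.0142), whereas of 78 respiratory chain genes 70 had differences below 0 with a median of -0.24 and none was called. Under scaling to the median of each array, all differences shift by 0.07. Of 18 epithelial junction genes, 1 was called, the tight junction claudin Cldn8, which fell by 1.04 (adjusted p = 0.00621, called under 12 of the 22 alternatives).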

How the data were processed

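Total RNA of 20 whole tracheas was labelled with Cy3 and hybridised by the authors to 1 Agilent array per sample. They deposited the intensity of each spot as Agilent Feature Extraction wrote it, after background subtraction and detrending, and a value table of the same intensity. No scaling between arrays had been applied. Control spots (1639 of 45018) and outlier-flagged values (1001 on the wild-type arrays) were left out, and spots of a probe were averaged on the log2 scale. The deposited intensity was then expressed as log2 relative to each array's 75th percentile. The genome build of the files is not given in the sources used here, so no positions of probes are printed. Probe names were updated from a RefSeq table (GRCm38.p6), through the accession for 22951 probes, the symbol for 6659 and a former symbol for 3109, while 8455 probes keep the name given on the array.

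Groups were taken from the sample labels. A linear model was fitted to all 20 arrays in 4 groups with limma 3.58.1 in R 4.3.3 (lmFit, contrasts.fit, eBayes), with the wild-type contrast injured minus uninjured, Benjamini-Hochberg adjustment over the 26075 probes tested and a threshold of 0.01. Probes had to be well above background on 10 of the 20 arrays, after the study's own filter at 50% of samples. Its methods name a one-way parametric test, which was run as an alternative. Where no array of a group measured a probe well above background, a bound is given, for which each such array counts at whichever is higher, the probe's signal there or the dimmest signal still well above background. The procedure was tested on simulated data. The labels and methods name separate samples from at least 3 litters, and p values measure the spread between these samples. Precision is limited by having 5 arrays a group.

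The samples were chosen by their labels, whereas the gene lists, their members and the tests were chosen with earlier results of these data known. Genes named are the 12 largest rises and 12 largest falls with non-overlapping groups, the genes of the stained antigens and Myd88, in each list up to 4 called genes of the largest difference and defining members that were not called, and list members at background. Some other members and S100a4 were chosen after their values were seen, and some genes that the rule names are not reported here. Lists are described by counts and medians and were not tested as sets. The promoter table held 66.1% of the tested genes. For lists of which under 80% of tested genes had a promoter, among them DNA replication and ciliary axoneme genes, the motif count was void and is not given.

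Alternatives were normexp background correction, quantile and median scaling, the deposited value table, 2 other filters, the wild-type arrays alone, slide as a replicate block, scanning day as a block, a term for Xist signal, array weights, outlier spots kept, the probe of lowest p for lists and leaving out each array. Values within each scanning day and counts of the lists without uninjured replicate 3 as a doubted library were added after seeing the data.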

Additional observations from a re-analysis of the deposited data

Results flagged for a closer look

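For each named gene and each gene list, an array was looked at again when its gap to the nearest of the other arrays of its group was above Dixon's critical value for 5 samples (0.71) as a share of the group's range. Of 274 groups of 5 examined, 21 (7.66%) met this, and chance gives about 1 in 20. Signals and means are on the log2 scale, list means as the difference from the uninjured mean.

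Uninjured replicate 3 was high for Krt14 (5.31) and for the means of the squamous (2.93), mitosis (1.17), cholesterol synthesis (0.86) and basal cell (0.78) lists and low for brown adipocyte genes (-0.78). It was also low for F7 (-6.86), which is below background there. Uninjured replicate 1 was high for the neutrophil list (1.43), Clec4e (-3.15), Clec4d (-0.85), Selp (-1.70) and Acta2 (7.11). Uninjured replicate 4 was high for Scd1 (5.78).

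Among injured arrays, replicate 5 was high for Ccl3 (1.79), for the neuroendocrine and tuft cell list (1.74) and for antioxidant genes (0.37). Replicate 2 was high for the squamous list (0.83) and for Marchf4 (-6.67, not well above background) and low for nerve and Schwann cell genes (-0.55). Replicate 4 was high for Trpm5 (-4.57) and C4b (3.63).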

How the results depend on the processing

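Of the 85 called genes that the naming rule picks, 59 stayed past the threshold and all 85 kept their direction under the 22 alternatives fixed for single genes. The 844 rises and 528 falls over all probes became 1585 and 1012 with array weights, 1298 and 808 with a block for scanning day, and 2403 and 1397 by the methods' one-way test at an unadjusted p under 0.01 (691 and 357 adjusted). Within the later scanning day there were 435 rises, and the list counts were 25 axoneme genes lower and 2 neutrophil, 0 mitosis and 4 DNA replication genes higher. In the fit of the wild-type arrays alone 13 axoneme genes fell. With slide as a replicate block, 926 probes rose and 622 fell (1185 calls shared of 1548 in that fit), 4 axoneme genes were lower, and 11 of the 85 calls were lost, those of Acod1, Aldh1a1, Spag16, Fpr2, Itgax, Col5a1, Sult1d1, Decr1, Scd1, Rpl14 and Rpl10a (adjusted p = 0.0104 to 0.0181). Outside those 85, the calls of Rsph4a, Ak7, Ube2c, Padi4, Ccl4 and Plau, given above, were lost as well (adjusted p = 0.0103 to 0.0158). Same-numbered injured and uninjured arrays deviated from their group means with correlations of 0.18, 0.16, -0.03, 0.11 and 0.40, and not every array correlated best with its own number. Leaving out 1 array gave 364 to 728 rises and 291 to 490 falls, and called members of 3 to 4 for secretory, 3 to 6 for axoneme, 2 to 6 for neutrophil, 12 to 20 for macrophage, 8 to 22 for mitosis, 18 to 27 for DNA replication, 4 to 6 for acute phase, 6 to 8 for CC chemokine, 3 to 4 for complement, 4 to 7 for matrix protease and 5 to 10 for xenobiotic genes. Differences that were not called changed sign for Foxj1 (0.20 without injured replicate 1, 0.094 without injured replicate 5, -0.94 to 0.20 over all arrays left out, 1.31 within the earlier day) and Acta2 (-0.050 with quantile scaling, -0.034 with array weights, -0.023 and -0.048 without injured replicate 2 or 4, up to 0.14 without injured replicate 5, -0.32 within the later day). Where arrays were left out or a single day was used, fewer arrays entered the fit, and otherwise the cause was not tested. Genes near background, of which 51 on the lists did not pass the filter, can be given as bounds at most.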
